A study of Mus musculus with 86 samples.

Results

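The peaks described here are PU.1 binding sites that 5 mouse macrophage populations had in common. A peak of the microglia PU.1 list was a member when it overlapped, by at least 1 bp, a PU.1 peak in each of the lists of large peritoneal macrophages (LPM), small peritoneal macrophages (SPM), bone marrow-derived macrophages (BMDM) and thioglycolate-elicited peritoneal macrophages (TGEM). The rule found 22692 of the 44869 microglia peaks, a share of 50.6%. Of the other 22177 microglia peaks, 6630 were in 4 of the lists, 4761 in 3, 4333 in 2 and 6453 in the microglia list alone. Members were thus chosen by the presence of a peak in these 5 PU.1 lists, and the scores in the lists are given as a description with no test.

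The study mapped PU.1, the histone modifications H3K27ac and H3K4me2, and RNA in macrophages of different origin. Each population in the rule came from untreated C57BL6/J mice and gave 1 chromatin immunoprecipitation library per target. Microglia are the macrophages of the brain, LPM and SPM are resident and smaller peritoneal macrophages, and these cells were sorted after fixation with paraformaldehyde. BMDM were grown from marrow in L-cell conditioned medium, a source of the macrophage growth factor M-CSF, and kept overnight in M-CSF. TGEM are macrophages drawn into the peritoneum by thioglycolate. Microglia and LPM of the strains NOD/ShiLtJ and SPRET/EiJ gave further PU.1 lists, again with no treatment. C57BL6/J LPM kept in culture for 7 days in 4 ng/ml M-CSF gave PU.1 lists with 2 µM DMSO, with 2 µM all-trans retinoic acid (ATRA) or with the vehicle of TGFB1. The label of the BMDM PU.1 sample names an H3K4me2 antibody although its title names PU.1. Its entries were 168 bp wide, 71.1% of them overlapped a TGEM PU.1 peak, and 64.1% overlapped a BMDM H3K4me2 region. Without this list the rule would have found 25434 peaks, and the values for those are given in the closing section.

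PU.1, encoded by Spi1, is an ETS family transcription factor that macrophage development requires. It binds purine-rich DNA with a GGAA core, opens chromatin together with partners such as C/EBP, AP-1, RUNX and IRF factors, and is followed by mono- and dimethylation of histone H3 lysine 4. H3K4me2 marks promoters and enhancers that are bound and accessible, and H3K27ac marks those that are active. Macrophages of different tissues bind PU.1 partly at the same sites and partly at sites of their own, and a bound site can be acetylated in one tissue and not in another.

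The promoters of macrophage genes that PU.1 occupies in every population are the plainest members to look at, and 8 of them are printed to show what lay under the peak centre. They were taken from 60 genes on 4 lists. The lists were core macrophage genes and PU.1 targets, Fc receptor and ITAM signalling, NADPH oxidase, and leukocyte cytoskeleton and adhesion. Of the 60 genes, 16 had a member whose centre, with 50 bases on either side, fell inside the RefSeq promoter window of that gene (build GRCm38.p6). Each run is the gene's own strand, 5′ to 3′, and the capitals mark GAGGAA or its longer PU.1 type form GAGGAAGT, or the reverse complement of either.

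C1qc: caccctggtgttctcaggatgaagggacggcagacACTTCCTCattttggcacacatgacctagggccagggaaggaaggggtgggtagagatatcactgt
Vav1: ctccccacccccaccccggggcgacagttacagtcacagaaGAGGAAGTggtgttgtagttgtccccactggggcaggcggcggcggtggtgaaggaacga
Fcgr4: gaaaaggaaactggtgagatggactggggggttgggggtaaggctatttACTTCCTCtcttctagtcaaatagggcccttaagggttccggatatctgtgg
Laptm5: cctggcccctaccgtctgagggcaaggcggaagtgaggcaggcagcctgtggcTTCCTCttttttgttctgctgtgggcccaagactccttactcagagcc
Syk: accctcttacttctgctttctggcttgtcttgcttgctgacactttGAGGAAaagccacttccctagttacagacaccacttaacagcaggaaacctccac
Dock2: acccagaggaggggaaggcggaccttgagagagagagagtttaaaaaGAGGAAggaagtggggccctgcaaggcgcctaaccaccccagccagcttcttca
Ncf1: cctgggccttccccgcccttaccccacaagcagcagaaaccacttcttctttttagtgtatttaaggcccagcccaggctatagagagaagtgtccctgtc
Mertk: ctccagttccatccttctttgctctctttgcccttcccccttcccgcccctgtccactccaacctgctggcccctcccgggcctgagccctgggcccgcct

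The C1qc run, from the promoter of a chain of complement C1q, lies at chr4:136893044-136893144 on the minus strand. The Vav1 run, from the gene of a guanine nucleotide exchange factor of blood cells, lies at chr17:57279048-57279148 on the plus strand. The Fcgr4 run, from the gene of an activating Fc receptor, lies at chr1:171018853-171018953 on the plus strand. The Laptm5 run, from the gene of a lysosomal membrane protein of leukocytes, lies at chr4:130913225-130913325 on the plus strand. The Syk run, from the gene of the kinase downstream of ITAM receptors, lies at chr13:52596827-52596927 on the plus strand. The Dock2 run, from the gene of a Rac activator of leukocytes, lies at chr11:34783861-34783961 on the minus strand. The Ncf1 run, from the gene of the p47 subunit of the NADPH oxidase, lies at chr5:134229579-134229679 on the minus strand. The Mertk run, from the gene of a receptor for apoptotic cells, lies at chr2:128698773-128698873 on the plus strand. Of the 16 promoters, 11 held GAGGAA, and 3 of those, the first 3 printed, held GAGGAAGT. Ncf1 and Mertk held neither word and are printed for contrast.

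The deposited score ranks a peak within its own list, and a percentile of 100 is the highest score. The C1qc peak was scored 261.9 in microglia, 285.7 in LPM, 431.9 in SPM, 418.1 in BMDM and 467.5 in TGEM, which placed it at percentile 99.4 in the microglia list and at 99.7 in the TGEM list. The Ncf1 peak, without either word, was scored 139.8, 172.2, 335.6, 237.4 and 307 in the same order and stood at percentile 96.3 in microglia. The Mertk peak was the weakest of the 16, with scores of 9.63, 18.6, 19.6, 46.2 and 46.8 and a microglia percentile of 16.2. C1qc, Laptm5, Syk, Ncf1, Vav1 and Dock2 lay under H3K27ac in all 5 populations and recurred in all 4 strain lists. Mertk was acetylated in all 5 populations and recurred in 2 strain lists.

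The PU.1 words were more frequent under common promoter peaks than under the other promoter peaks of microglia. Within 100 bp of the peak centre, on both strands, GAGGAAGT lay in 97 of 808 common peaks (12%, Wilson 95% interval 9.94 to 14.4%), in 14 of 489 other microglia peaks (2.86%, 1.7 to 4.7%) and in 2.07% of the 32815 distinct promoter windows cut to the same length. GAGGAA, which GAGGAAGT contains, lay in 40.8%, 26.2% and 19.1%. CCGGAAGT, the ETS type word of many housekeeping promoters, lay in 12.6% of the common and 11% of the other peaks, against 2.68% of promoters, and the intervals of common and other peaks overlapped. TGANTCA, the AP-1 word, lay in 2.72%, 2.04% and 5.53%. TTGCGCAA, a C/EBP word, lay in 0.495%, 0.613% and 0.134%, TGTGGTT, a RUNX word, in 3.59%, 3.07% and 3.50%, and GGGCGG, an SP and KLF word, in 54.0%, 52.6% and 31.1%. The common peaks scored higher in microglia (median percentile 74.2) than the other peaks (37.7), and the part of score in these shares was not tested. No sequence away from promoters was searched, so the shares say nothing of distal members.

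Promoter members that held GAGGAAGT were stronger and recurred more often, while intervals for acetylation overlapped. Within 50 bp of the centre, 205 members in promoter windows held the word and 1473 did not. Their median microglia percentiles were 89.3 and 72.8. They were in all 4 strain lists in 46.3% (39.6 to 53.2%) and 22.3% (20.2 to 24.5%) of cases, and the part of score in this difference was not tested. H3K27ac lay over them in all 5 populations in 38.5% (32.1 to 45.4%) and 39.4% (36.9 to 41.9%).

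Common peaks were the strong end of each list. Their median percentile was 70.5 in microglia, 76.4 in LPM, 83.9 in SPM, 77.8 in BMDM and 79.4 in TGEM, and that of the other entries of the same list lay between 31.3 and 38.8. The share of microglia peaks that were common rose from 12.5% in the lowest score decile to 94.8% in the highest. The lists held 65261 peaks in LPM, 89648 in SPM, 67724 in BMDM and 70436 in TGEM, so the SPM percentiles are of the longest list and the microglia percentiles of the shortest. These scores come from the lists that chose the members.

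**Figure D1:**
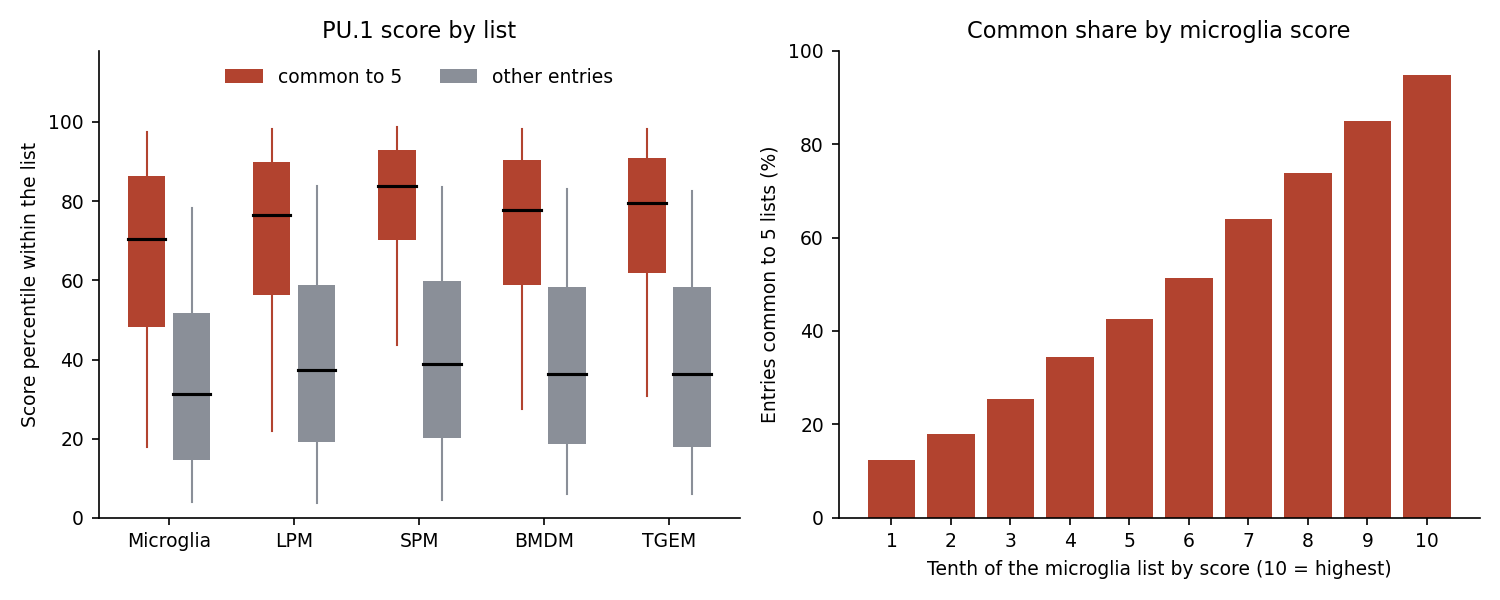
PU.1 score of common and other peaks. On the left, boxes give the quartiles and median of the score percentile within each list (y axis) and lines reach from the 5th to the 95th percentile of the peaks; on the right, bars give the share of microglia peaks (%) that were common in each decile of the microglia list by score. Common peaks had the higher median in every list, 83.9 against 38.8 in SPM, and their share reached 94.8% in the top decile.

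The members still differed among themselves by population. Of the 22692, 2367 were in the top decile of all 5 lists and 13223 in the upper 50% of all 5, while 517 were in the lower 50% of all 5. The median member differed by 26.1 percentile points between its highest and its lowest list. In 1568 cases a member was in the top decile of 1 list and in the lower 50% of another. Across the 22692 peaks, percentiles correlated with r = 0.79 between LPM and SPM and 0.771 between BMDM and TGEM, and microglia correlated with the other 4 at 0.514 to 0.550. Each point is a peak, all peaks of a list share 1 library and its depth, and these values are a description.

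The rule's edge was thin. The smallest of a member's 4 overlaps was 1 bp in 7 members and at most 50 bp in 202, against a median of 152 bp. Those 202 had a median microglia percentile of 50.3, and 38.6% of them had a transcript start within 1 kb. Just outside the rule, 130 of the 6630 peaks found in 4 lists had an entry of the missing list within 50 bp, with a median percentile of 55.8 and a start within 1 kb in 32.3%. The list missing for the 6630 was BMDM in 2742 cases, LPM in 2330, TGEM in 1107 and SPM in 451.

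The strongest members lay mostly away from promoters, as did members at large, of which 20.0% had a start within 1 kb. The 10 with the highest mean percentile had as nearest genes, in order, Pisd-ps3, Jazf1, Nnmt, Soga1, E230029C05Rik, Cd53, Tbc1d14, Psen2, Gm13498 and Slc2a1. The first lies on an unplaced contig, Un_JH584304, and headed all 5 lists, with scores from 1598.5 in microglia to 3760.7 in SPM. That peak was in 0 of the 4 strain lists, and Pisd-ps3 read 0 in all 10 RNA libraries. The Jazf1 peak, inside the gene of a zinc finger protein at chr6:52842681-52842858, was scored 798.8 in microglia, 863.5 in LPM, 1769.9 in SPM, 1281.1 in BMDM and 1145.5 in TGEM. H3K27ac lay over it in SPM, BMDM and TGEM and not in microglia or LPM. The Cd53 peak at chr3:106790030-106790207 was at a promoter, with its centre 31 bp from the start, and Pisd-ps3 was the only other of the 10 with a start within 1 kb. Cd53 encodes a tetraspanin of leukocytes. Its scores were 598.6, 600.9, 1005.5, 658.8 and 640.3, it was acetylated in all 5 populations and it recurred in all 4 strain lists. The Slc2a1 peak, 18663 bp into the gene of a glucose transporter, was acetylated in every population except microglia.

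Common peaks lay nearer to transcript starts than the other microglia peaks, although most were distal. A start lay within 1 kb of the peak centre for 20.0% of members (19.4 to 20.5%) and 13% of the other microglia peaks (12.5 to 13.4%). The share was 18.1% for peaks in 4 lists, 14.9% in 3 and 10.9% in 2. The median distance to a start was 12680 bp for members. Within score deciles of the microglia list, members had the higher share in all 10, and the mean gap over the deciles was 5.54 percentage points. In deciles of the other lists they were higher in 9 in LPM, 10 in SPM, 9 in BMDM and 6 in TGEM. With each decile counted alike, the mean gaps there were 8.55, 20.5, 8.20 and 3.99 points. In SPM the gap was 36.9 points in the lowest decile, which held 41 members, and 7.73 in the highest, which held 7684. Over 3 kb from any start lay 16256 members, of which 8905 were inside a transcript span and 7351 between genes. Starts are those of the transcripts in the deposited expression tables.

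**Figure D2:**
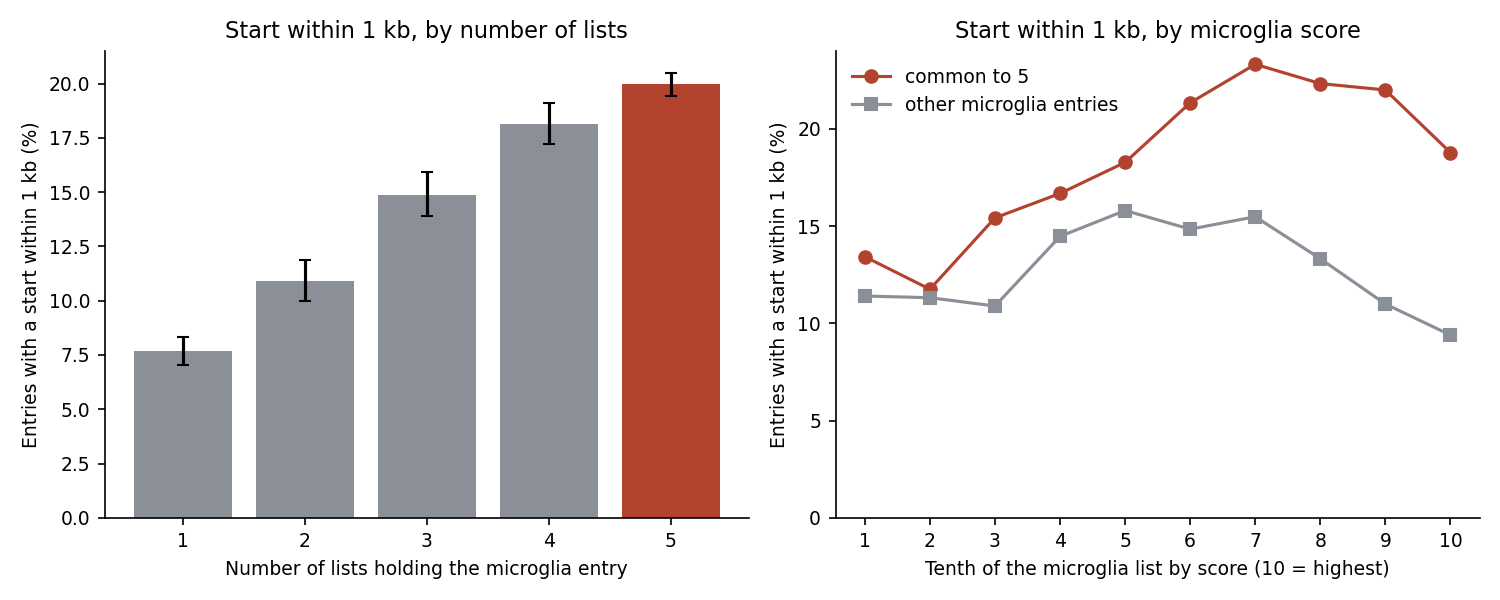
Transcript starts near PU.1 peaks. Bars give the share of microglia peaks with a start within 1 kb (%) by the number of lists that held the peak, with Wilson 95% intervals, and lines give the same share (%) by decile of the microglia list by score. The share reached 20.0% in peaks common to 5 lists, and the common line lay above the other line in all 10 deciles.

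Acetylation of the same bound sites differed between populations. H3K27ac lay over 30.2% of members in microglia (29.6 to 30.8%), 50.5% in LPM, 57.6% in SPM, 54.6% in BMDM and 62.7% in TGEM. H3K4me2 lay over 59.3% in microglia, 63.9% in LPM, 20.9% in SPM, 74.7% in BMDM and 75.2% in TGEM. Microglia were lowest for acetylation and SPM for methylation. The deposited region lists differ in extent along the same lines: H3K27ac regions covered 23.3 Mb in microglia and 77.7 Mb in TGEM, and the SPM H3K4me2 regions covered 27.1 Mb with a median width of 660 bp, the narrowest of the 10 lists. Antibody also differed, since H3K27ac came from one vendor for the sorted cells and another for BMDM and TGEM, and each mark was measured once per population. Differences between populations therefore cannot be told apart from those between lists.

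Within a population, members were marked more often than the other PU.1 peaks of its list, and for both marks that gap changed when peaks of like score were compared. H3K27ac lay over 30.2% of members and 16.3% of the other peaks in microglia, 50.5% and 34.5% in LPM, 57.5% and 26.9% in SPM, 54.4% and 33.0% in BMDM, and 62.5% and 46.5% in TGEM. Compared within score deciles of the list, each decile counted alike, the mean gap was 0.39 percentage points in microglia and -3.40 in LPM. It was 13.2 in SPM, -1.62 in BMDM and -12.8 in TGEM. Members crowd the upper deciles: the BMDM list held 224 in its lowest decile and 5947 in its highest. In the highest decile the H3K27ac gap was 9.41 points in microglia, 4.59 in LPM, 8.98 in SPM, 7.41 in BMDM and -1.72 in TGEM. At equal score rank, members were thus acetylated more often in SPM in all 10 deciles and less often in TGEM in all 10. For H3K4me2 the same mean gap within deciles was 4.71 points in microglia, -0.36 in LPM, 11.03 in SPM, -4.00 in BMDM and -4.30 in TGEM. Members were higher in 1 of 10 deciles in BMDM and in TGEM. In the highest decile the H3K4me2 gap was 15.4 points in microglia, 10.6 in LPM, 3.82 in SPM, 4.62 in BMDM and 0.80 in TGEM.

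Breadth of acetylation followed position. Of the members, 5097 (22.5%) had H3K27ac in no population, 2797 in 1, 2914 in 2, 2823 in 3, 4409 in 4 and 4652 (20.5%) in all 5. Of the 4530 members with a start within 1 kb, 44.3% had it in all 5 and 4.30% in none. Of the 16256 over 3 kb from a start, 13% had it in all 5 and 28.1% in none. Among the other microglia peaks, 6.80% had it in all 5 and 60.6% in none. Distal members thus held the range from unmarked to marked everywhere, with each number of populations between 1 and 4 taking 13.1 to 16.4%.

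**Figure D3:**
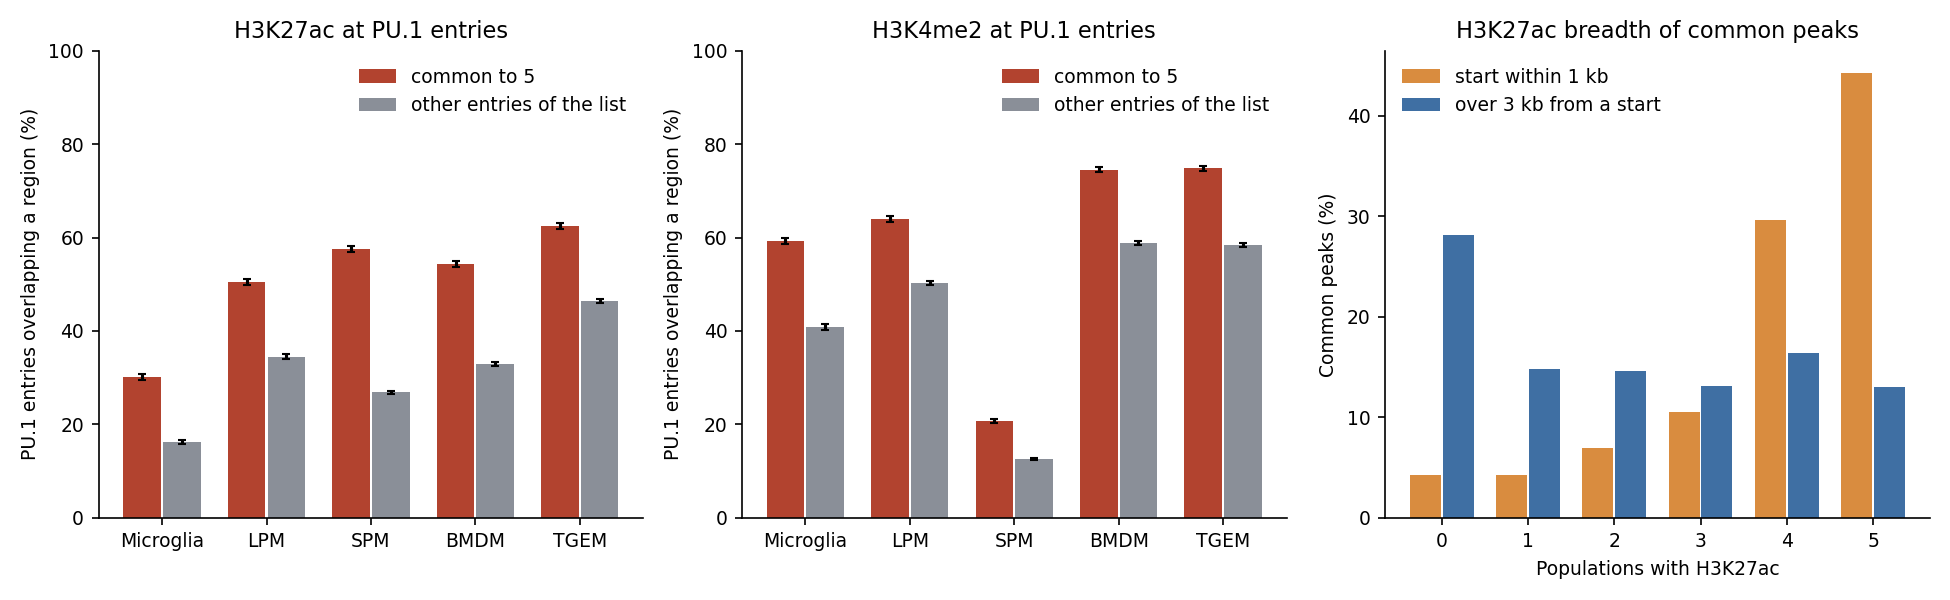
Histone regions over PU.1 peaks. The left and middle panels give the share of common peaks and of the other entries of the same list (%) that overlapped an H3K27ac or H3K4me2 region, by population, with Wilson 95% intervals; the right panel gives the share of common peaks (%) with H3K27ac in 0 to 5 populations near and away from starts. Microglia had the lowest H3K27ac share, 30.2%, SPM the lowest H3K4me2 share, and near starts 44.3% of members were acetylated in all 5.

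Some common sites were acetylated in 1 population alone: 259 in microglia, 264 in LPM, 672 in SPM, 549 in BMDM and 1053 in TGEM. These were mostly distal, with a start within 1 kb in 4.55 to 10.6% of a class against 43.1% of those acetylated in all 5. PU.1 rank in the marked population was above its usual place among members. Relative to its mean over the other 4 lists, the percentile of the microglia class was higher in microglia by a median of 12 points, against -4.23 for all members. The same median was 11.1 in LPM for the LPM class (all members -0.28), 17.8 in SPM (6.47), 6.46 in BMDM (0.80) and 8.39 in TGEM (2.20). The marked list was not always the highest: in SPM, where it had no mark, the LPM class stood at 14.02 points and the BMDM class at 9.12. The classes are set by histone lists, which the rule did not use, while the percentiles come from its lists and are a description.

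The 5 strongest sites of this kind show that PU.1 rank can be near the top everywhere while the mark is in 1 list. The peak upstream of Smad1, a transducer of BMP signals, at chr8:79415044-79415221 stood at percentile 99.8 or above in all 5 lists and had H3K27ac in BMDM alone. A peak 66726 bp into Zfhx3, the gene of a homeobox zinc finger factor, was acetylated in microglia alone. A peak within Piwil2 and one within Cped1 were acetylated in TGEM alone, and one at the promoter of the class I gene H2-Q7 in SPM alone. Their mean percentiles ran from 99.5 to 99.9.

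Common peaks recurred in the other strains more often than other peaks, in libraries that the rule did not use. In microglia, 44.8% of members (44.2 to 45.5%) overlapped a NOD/ShiLtJ PU.1 peak, against 14.5% of the other microglia peaks, and 39.8% against 13.3% overlapped a SPRET/EiJ peak. In LPM, 66.9% of members overlapped a NOD/ShiLtJ peak, against 31.6% of the other LPM peaks, and 53.1% against 18% a SPRET/EiJ peak. The NOD/ShiLtJ and SPRET/EiJ lists were shorter, 18633 and 19832 peaks in microglia and 36125 and 27633 in LPM, than the C57BL6/J lists of 44869 and 65261, and the part of list length in these shares was not tested. Within score deciles the members' share was higher in all 10 for each of the 4 lists. With each decile counted alike, the mean gap fell to 3.34 percentage points for microglia NOD/ShiLtJ and 5.28 for microglia SPRET/EiJ. It fell to 4.39 for LPM NOD/ShiLtJ and 10.1 for LPM SPRET/EiJ.

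Score and breadth of recurrence went together. All 4 strain lists held 4540 members, with a median microglia percentile of 92.0, and none of them held 3446, with a median of 44.1. In the other microglia peaks 0.870% were in all 4. That share was 2.17% for peaks in 4 of the rule's lists and 0.046% for those in the microglia list alone. LPM lists are among the 4 strain lists, and by the rule every member had a C57BL6/J LPM peak while not every other peak did. The parts of this and of score in the contrast were not tested. On the X chromosome, 27.5% of the 513 members recurred in NOD/ShiLtJ microglia (23.8 to 31.5%), 27.5% in SPRET/EiJ microglia, 65.9% in NOD/ShiLtJ LPM and 39.4% in SPRET/EiJ LPM. X peaks were 1.28%, 1.52%, 2.11% and 1.53% of these lists, and the part of this in the X values was not tested. The 6 members on contigs overlapped no strain peak.

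**Figure D4:**
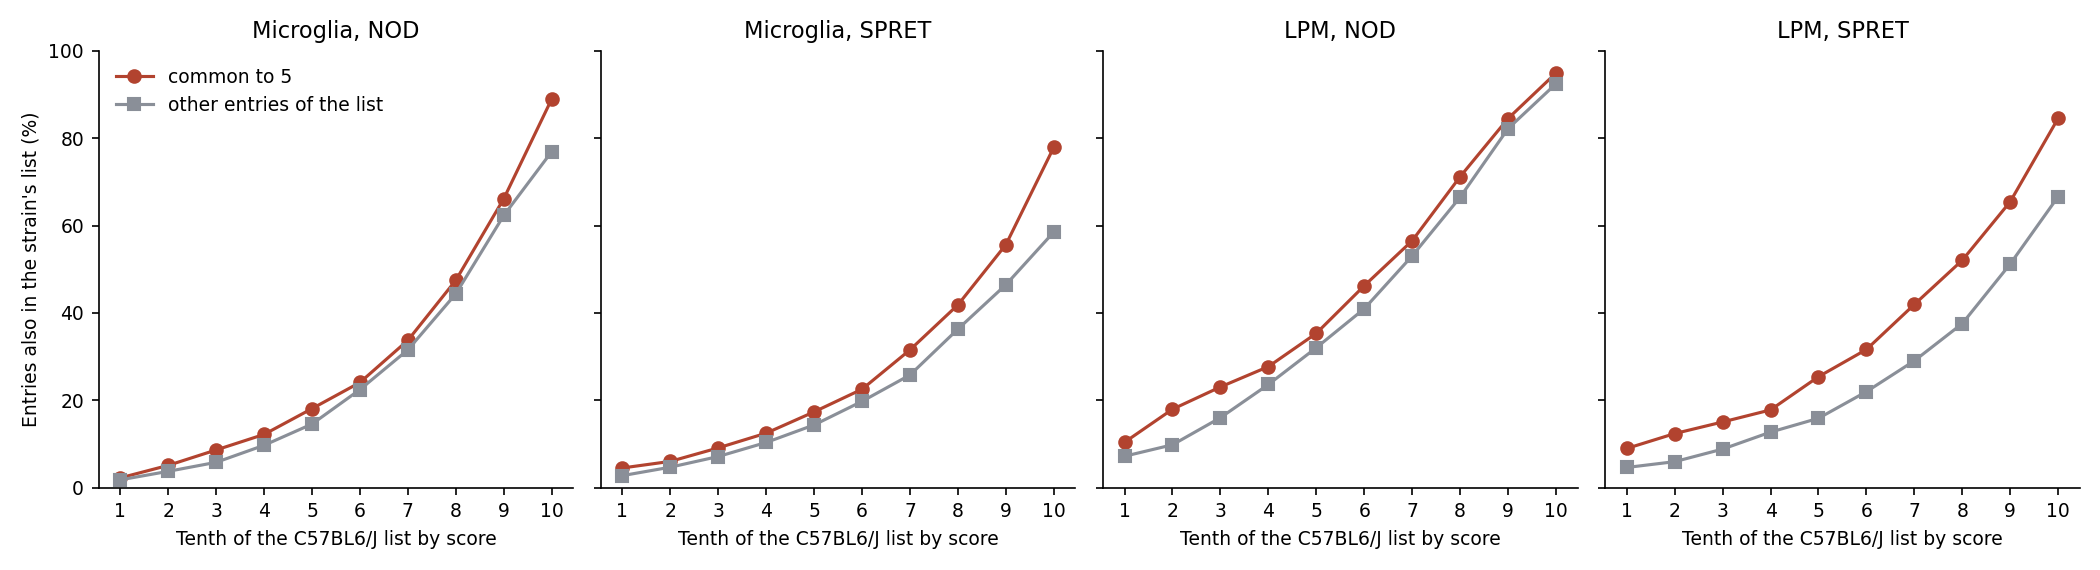
Recurrence of PU.1 peaks in other strains. Each panel gives the share of C57BL6/J peaks (%) that overlapped a PU.1 peak of the named strain, by score decile of the C57BL6/J list of the same population, for common peaks and for the other entries of that list. Shares rose with score for both, and common peaks lay above other peaks in all 10 deciles of every panel. The mean gap, with each decile counted alike, was 3.34 to 10.1 percentage points.

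LPM kept many common distal sites in culture, but the lists differ in length. The cultured lists hold peaks over 3 kb from a start only, so members over 3 kb were used. Of these 16256, 39.5% (38.8 to 40.3%) were in the list of LPM with DMSO, 84.5% with ATRA and 82.6% with the TGFB1 vehicle. The other distal microglia peaks were there in 2.86%, 17.6% and 18.2%. By the rule every member had an LPM peak, while the other peaks include those without one, so this contrast is in part set by membership. For distal peaks of the microglia list alone, which by definition had no LPM peak, the shares were 0.18%, 1.26% and 1.77%. The other entries of the LPM list were not compared here. The 3 lists held 9645, 28624 and 30259 peaks, each from 1 library, and the lower share with DMSO goes with the shortest list.

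The genes nearest to common peaks were read in RNA from the same 5 populations, 2 libraries each. Values are reads over the whole transcript span, introns included, per 10000000 mapped reads, and are compared between populations and never between genes. A gene was called when limma's moderated F test over the 5 populations gave a Benjamini-Hochberg adjusted p under 0.05 over all 19313 genes tested and the highest and lowest population means were at least 1 log2 unit apart. Of all genes tested, 42.3% were called. Outside microglia, the microglia marker P2ry12 read at most 250.1 and Sall1 at most 14. The LPM markers were also high in SPM, where Alox15 read 32444 and 20683 against 50316 and 24567 in LPM. The B cell factor Pax5 read 1587 and 985.6 in SPM, 81.5 and 222 in LPM, and at most 14.9 in the other libraries. Ebf1, another B cell factor, read 2332 and 2556 in SPM, 126.2 and 619.5 in LPM, and at most 49.7 in the others. The 3 T and NK cell markers summed to at most 16.3 in any library. The part of B cell RNA in the SPM values was not tested. SPM replicate 1 had the fewest mapped reads, 2890000, and TGEM replicate 1 the most, 27000000. Replicate 1 came from polyA RNA, and the second libraries of the sorted cells from RNA depleted of ribosomal RNA. Xist stood at 6418 and 6.52 in the BMDM replicates and at 1.48 and 1738 in those of TGEM. The Y gene Ddx3y stood at 2.28 and 2295 in BMDM and at 834.7 and 186.2 in TGEM. The replicates thus differed in the sex of their animals, and TGEM replicate 2 held RNA of both genes. Fewer expressing cells and less RNA per cell cannot be told apart in such libraries.

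Genes nearest to common peaks were called as different between populations more often than other genes were. The 20906 members with a start within 100 kb had 10071 nearest genes, and 4968 of the 9631 tested were called (51.6%, 50.6 to 52.6%), against the 42.3% of all genes. Genes whose nearest microglia peaks were all of the other kind were called in 39.3%, and genes with no peak within 100 kb in 29.7%. Detection differed in the same order: 74.2%, 52.4% and 27.6% of the 3 groups read 1 or more in all 10 libraries. Within quintiles of mean level, from the lowest, genes near common peaks and genes near other peaks were called in 16.4% and 14.4%, 48.02% and 44.3%, 53.7% and 48.7%, 54.3% and 44.5%, and 60.8% and 49.9%. The share called also rose with the number of common peaks, from 44.7% of genes with 1 to 56.5% with 2 to 4, 70.4% with 5 to 9 and 77.6% with 10 or more. Their median mean level rose in the same order, at 6.81, 8.07, 9.64 and 10.87 on the log2 scale, and so did the share reading 1 or more in all libraries, from 68.8% to 94.03%, and the part of level in the trend was not tested. Of the 52 called among those 67 genes, 31 were highest in microglia. The same held for 1465 of the 4968 called genes nearest to common peaks and for 2168 of all 8179 called genes. Members are entries of the microglia list, and the part of this in the count was not tested.

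The genes with the most common peaks were led by a regulator of blood cells. Runx1, a core factor of blood development, had 18. Asap1 and Frmd4a had 17 each, Foxp1 16 and Fli1, an ETS factor, 15, and 6 further genes had 14 (4933433H22Rik, Lpp, Mbnl1, Plcl2, Rreb1 and Tnfaip8). Runx1 read 16407 and 8622 in microglia, 2244 and 3505 in LPM, 3447 and 2986 in SPM, 2424 and 2291 in BMDM, and 625.8 and 804.5 in TGEM. Both microglia libraries were above all others and both TGEM libraries below, and the F test gave an adjusted p of 0.0006798 with 4.07 log2 units between microglia and TGEM. Fli1 read 7632 and 6678 in microglia, 4938 and 8416 in LPM, 5204 and 7042 in SPM, 2791 and 2620 in BMDM, and 667.7 and 643.1 in TGEM. The sorted cells overlapped one another and lay above BMDM, which lay above TGEM, with an adjusted p of 0.0003768 in limma's F test.

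The listed core macrophage genes and PU.1 targets all had common peaks, with acetylation in many places. This list was chosen in part for PU.1 targets, so that all its genes had common peaks is in part set by the choice. In all, 23 of 23 listed genes in the table had at least 1, with 81 peaks between them, and 59.3% of these were acetylated in all 5 populations, against 21.5% of all assigned members. Among all symbols 41.9% had a common peak, and among those reading 1 or more in all libraries 60.6%. Limma called 17 of the 23, beside 42.3% of all genes and 51.6% of genes nearest to common peaks. Spi1, the gene of PU.1 itself, had 5 common peaks, the nearest 122 bp from its start, and all 5 were acetylated in all 5 populations. Spi1 read 2980 and 569.8 in microglia, 1639 and 824.1 in LPM, 1764 and 861.4 in SPM, 3117 and 1934 in BMDM, and 3017 and 3151 in TGEM. The groups overlapped, and limma's adjusted p was 0.1109. It was called with quantile normalization, with edgeR and without microglia replicate 1, so its call depends on those choices. Laptm5 had 6, all 6 acetylated in all 5, and read between 3264 and 22519 with overlapping groups (adjusted p = 0.722 in limma's F test).

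The same list held genes with common peaks and large differences in RNA. Cybb, the catalytic subunit of the phagocyte NADPH oxidase, had 5 common peaks, the nearest 54 bp from its start, and none was acetylated in all 5. It read 162.7 and 31.2 in microglia, 25527 and 13856 in LPM, 18356 and 11972 in SPM, 10101 and 13267 in BMDM, and 8806 and 12316 in TGEM. Both microglia libraries were far below the other 8, with 8.02 log2 units between LPM and microglia and an adjusted p of 5.033e-05 in limma's F test. Lyz2, the gene of lysozyme, read 1157 and 345 in microglia and 92069 to 209236 in the others, with 2 common peaks, neither acetylated in all 5 (adjusted p = 0.0003237). Mertk, with the weak promoter peak printed above, went the other way. It read 23904 and 12086 in microglia, 3366 and 2924 in LPM, 3025 and 2510 in SPM, 1315 and 1003 in BMDM, and 1163 and 1122 in TGEM, and was called by limma with an adjusted p of 0.0001549.

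The other lists of macrophage machinery had common peaks at nearly all their genes. A common peak was found at 41.9% of all symbols and at 60.6% of symbols reading 1 or more in all libraries. Among the listed broadly expressed genes the share was 68.8%. These lists were chosen for macrophage functions, and the part of that choice in the counts was not tested. The called counts stand beside 42.3% of all genes tested and 51.6% of genes nearest to common peaks. Fc receptor and ITAM signalling genes had common peaks in 19 of 19 cases, with 14 called by limma. Inpp5d, the inositol phosphatase SHIP, had 12 common peaks, 10 of them acetylated in all 5, and read 27330 and 12528 in microglia and 1112 to 3901 elsewhere (adjusted p = 0.0007656). Syk and Btk, kinases of the same pathway, were not called, and read 2134 to 8094 and 557.3 to 1473 over the 10 libraries. NADPH oxidase genes had common peaks in 6 of 6 cases with 3 called, and Ncf1, with 7 common peaks, had population means within 0.28 log2 units. Toll-like receptor signalling genes had them in 19 of 21, of which 11 were called, and the exceptions were Irak1 and Tirap. Cytokine receptors had them in 17 of 17 with 13 called, among them Csf2rb, the common beta chain of the GM-CSF receptor, whose nearest common peak was 15 bp from its start. Leukocyte cytoskeleton and adhesion genes had them in 21 of 21 with 14 called. Itgb2, the beta chain of CD11b/CD18, read 2842 and 1474 in microglia and 6710 to 29525 elsewhere (adjusted p = 0.0027 in limma's F test).

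Lysosome genes had common peaks in 20 of 22 cases, beside 41.9% of all symbols. Of their 67 peaks, 67.2% were acetylated in all 5 populations, beside 21.5% of all assigned members. Limma called 17 of the 20, beside 42.3% of all genes and 51.6% of genes nearest to common peaks. Psap, the precursor of the saposins, had 7 and read 21112 and 5665 in microglia, 16823 and 7552 in LPM, 20106 and 10938 in SPM, 91756 and 62610 in BMDM, and 370858 and 307475 in TGEM. Both TGEM libraries were highest and both BMDM libraries next, with an adjusted p of 0.001986 in limma's F test. Ctsb, the gene of cathepsin B, had 5 common peaks, all acetylated in all 5, and read 98961 to 208898 in BMDM and TGEM and 5756 to 15546 in the sorted cells (adjusted p = 0.001276). Here shared binding and shared acetylation went with RNA that differed between populations.

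Lineage transcription factors carried 176 common peaks over 26 of 28 genes, beside 41.9% of all symbols with a common peak. Of the 176 peaks, 30.1% were acetylated in all 5, beside 21.5% of all assigned members. Limma called 19 of the 26, beside 42.3% of all genes and 51.6% of genes nearest to common peaks. Ikzf1, a zinc finger factor of blood cells, had 8 and read 7482 and 9649 in microglia, 2350 and 3699 in LPM, 3475 and 3913 in SPM, 1008 and 1040 in BMDM, and 519.2 and 784.6 in TGEM (adjusted p = 0.0001299). Both microglia libraries were above all others and both TGEM libraries below. Irf8, a partner of PU.1, had 10 common peaks and read 4988 and 2175 in microglia and 498.7 to 1904 elsewhere (adjusted p = 0.0029). Maf had 6, none acetylated in all 5, and read 9846 and 10370 in BMDM and 432.2 to 2805 elsewhere (adjusted p = 0.0005232). Cebpb and Nr1h3 had no common peak.

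Genes that mark 1 population differed in how many had common peaks. Microglia markers had them in 15 of 17 genes, with 51 peaks of which 17.6% were acetylated in all 5, near the 21.5% of all assigned members, and all 15 were called. Sall1 and Siglech, which mark microglia, had none, although each had 5 other microglia peaks. P2ry12, the ADP receptor of microglia, had 4 and read 14644 and 16227 in microglia against 8.89 to 250.1 elsewhere (adjusted p = 4.811e-06). LPM markers had common peaks in 10 of 19, with 15 peaks and none acetylated in all 5. Gata6, the factor that defines LPM, had 1 at 6260 bp from its start and read 2185 and 2086 in LPM, 1327 and 1005 in SPM, 103 and 131.6 in TGEM, and at most 5.02 in the other populations (adjusted p = 1.32e-05). The SPM and dendritic list had them in 11 of 15 with 21 peaks, none acetylated in all 5, and the elicited and cultured list in 11 of 14 with 20 peaks, 5% of them acetylated in all 5. Marker genes were chosen for differing in RNA, so that all with common peaks were called is no finding.

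In lists of other cell types, common peaks were found at 4 of 9 B cell markers (44.4%), 3 of 10 T and NK cell markers, 5 of 12 neural markers (41.7%) and 3 of 12 erythroid and hepatocyte genes, beside 41.9% of all symbols. Broadly expressed genes had them in 11 of 16. No test of these counts against one another was made.

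Among called nearest genes, each with at least 1 common peak by choice, the largest RNA ranges were those of Alox15 (14.2 log2 units), Mmp12 (14), Gpnmb (13.3), C4b (12.7) and Atp6v0d2 (12.6). Mmp12, the macrophage elastase, had 3 common peaks and read 13167 and 36718 in BMDM and 59839 and 81332 in TGEM, against 0.512 to 17.9 in the other 6 libraries (adjusted p = 1.412e-05 in limma's F test). C4b, a complement component, had 1 and read 28317 and 17484 in LPM, 18717 and 10969 in SPM, and at most 372.4 elsewhere (adjusted p = 1.585e-05). At the other end, 210 of the 1283 nearest genes with a mean log2 value of at least 10 differed by less than 1 log2 unit. Tlk1, Larp1, Fes and Gspt1 were among the 5 flattest. Tlk1 read between 961.1 and 1383 in all 10 libraries, with 0.20 log2 units between the highest and lowest means. A p that misses the threshold does not show that these genes are equal.

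**Figure D5:**
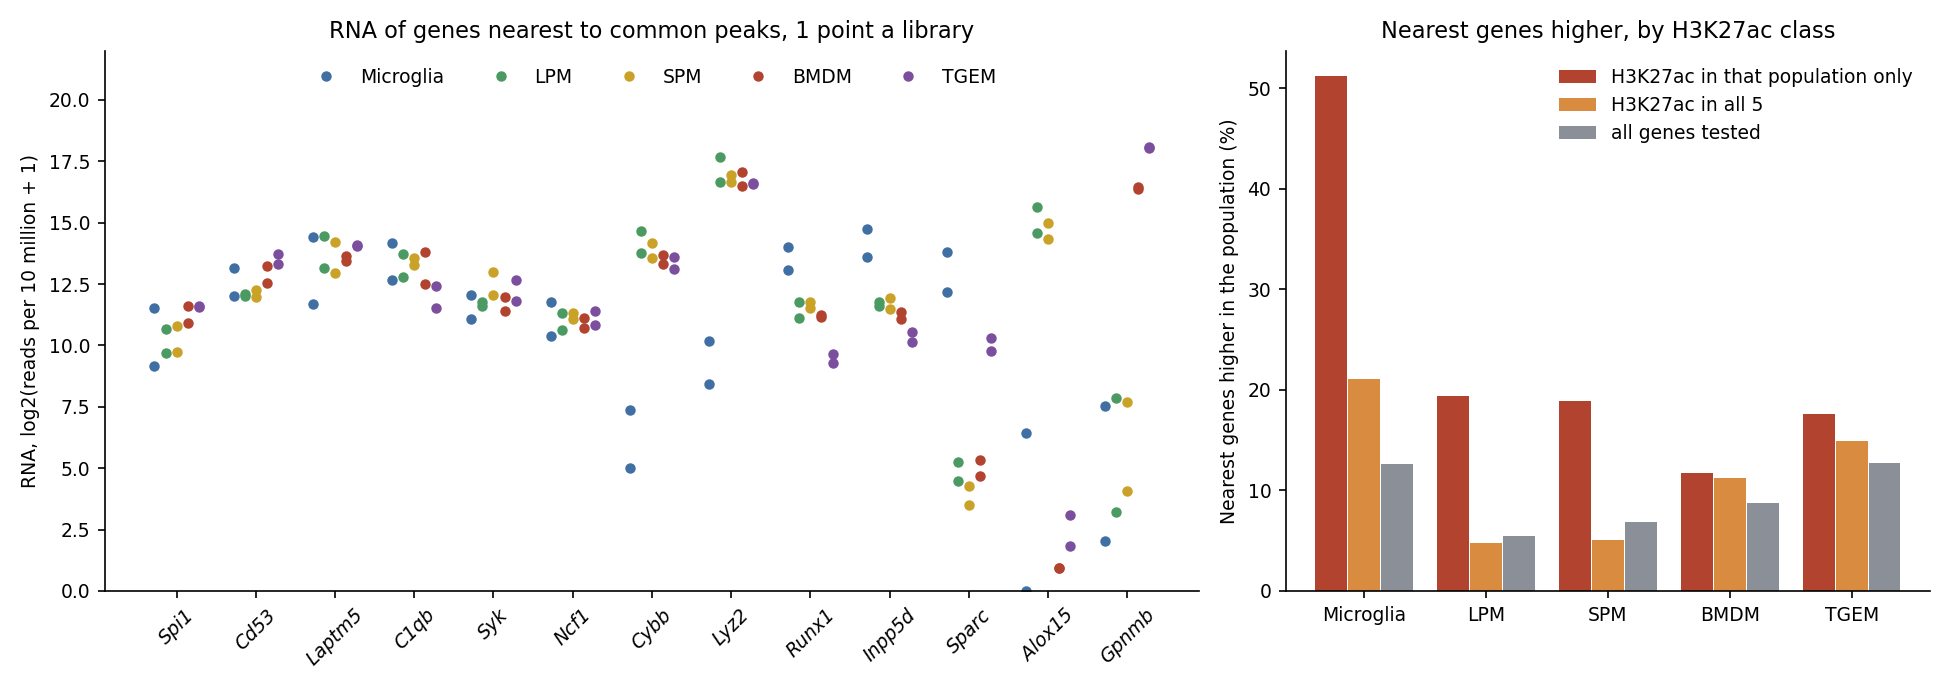
RNA of genes nearest to common peaks. On the left, points give log2(reads per 10000000 + 1) in each of 10 libraries for 13 genes; on the right, bars give the share of nearest genes (%) that were higher in a population, for common peaks acetylated in that population only, in all 5, and for all genes tested. Cybb and Lyz2 were lowest in microglia, and 51.2% of the genes nearest to peaks acetylated in microglia only were higher there, against 12.6% of all genes.

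Genes nearest to sites that were bound in common and acetylated in 1 population were higher in it in 51.2% of cases for microglia and in 11.8 to 19.4% for the other populations. A gene was counted as higher when limma's contrast of that population with the mean of the other 4 gave an adjusted p under 0.05 and at least 1 log2 unit. Near the microglia class 111 of 217 genes were higher in microglia, against 12.6% of all genes tested and 21.1% near peaks acetylated in all 5. The median contrast was 1.40 log2 units. Near the LPM class 41 of 211 were higher in LPM (19.4%, all genes 5.46%, acetylated in all 5 4.82%), and 37 were higher in SPM (17.5%, all genes 6.85%). Near the SPM class 104 of 551 were higher in SPM (18.9%, all genes 6.85%, acetylated in all 5 5.09%), where the B cell markers were also high. Near the BMDM class 52 of 442 were higher in BMDM (11.8%), close to the 11.2% near peaks acetylated in all 5 and with 8.71% among all genes. Near the TGEM class 144 of 817 were higher in TGEM (17.6%, all genes 12.7%, acetylated in all 5 14.9%). There 172 were lower in TGEM (21.1%), close to the 21.6% near peaks acetylated in all 5 and with 14.8% among all genes. More genes were higher in microglia than in the class's own population near the SPM class (122, 22.1%), the BMDM class (99, 22.4%) and the TGEM class (185, 22.6%), and these shares lay near the 21.1% of genes near peaks acetylated in all 5.

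Examples of such genes, chosen after their values were seen, were the following. Sparc, the gene of a matrix protein that microglia express, had 2 common peaks, both acetylated in microglia alone. It read 14283 and 4579 in microglia, 36.7 and 21.5 in LPM, 10.4 and 18.4 in SPM, 39.2 and 24.7 in BMDM, and 866.6 and 1269 in TGEM, and microglia were higher by 7.03 ± 0.44 log2 units (SE, 2 libraries a population, limma adjusted p = 4.796e-06). Both microglia libraries were highest and both TGEM libraries next. Gm1631 had 4 common peaks, 2 of them acetylated in LPM alone, and read 486.7 and 292.1 in LPM, 280.6 and 137.8 in SPM, and at most 0.717 elsewhere. H2-Ob, a class II chaperone gene that B cells and dendritic cells express, had 2 of its 3 common peaks acetylated in SPM alone and read 658.3 and 334.1 in SPM, 194.2 and 156.1 in microglia, and 95.5 and 59.85 in LPM. Btg1, a growth regulator, had 10 common peaks, 5 of them acetylated in TGEM alone, and was highest in microglia, at 2453 and 4017, against 1964 and 1309 in TGEM. In limma's contrasts Btg1 was higher in TGEM by 1.00 log2 units (adjusted p = 0.02537). In microglia it was higher by 2.21 log2 units (adjusted p = 0.000333). The mark and the highest RNA of the nearest gene thus pointed to the same population at Sparc and to different ones at Btg1.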

How the data were processed

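PU.1, H3K27ac and H3K4me2 were measured by ChIP-seq with 1 library per condition, and RNA in 10 libraries. Per the submitters' processing notes, Bowtie, HOMER and STAR were used with the mm10 build. Their versions, and whether counting used strand, are not given in the sources; overlapping genes on either strand can therefore share reads. Peaks and regions were deposited as 1 list per sample with a score, the authors' own, which served here to rank the entries of each list. Depth of the ChIP libraries was not used, and Wilson 95% intervals cover counting error only. Per the file headers, the authors' RNA signal is reads set to a total of 10000000 mapped per library. It was counted over whole transcripts, and 100% of low values came out as whole reads within a tolerance of 0.1.

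The members, gene lists and tests were chosen with earlier results of these data known. Peaks were compared with Python 3.11.15 and pandas 2.3.3, and the nearest gene was taken from the peak centre to transcript starts within 100 kb. RNA was fitted with limma 3.58.1 in R 4.3.3, with a mean-variance trend on log2(signal + 1), 1 row per symbol (the longest), genes with 1 or more in at least 1 library (19313 of 24063) and the deposited table as a block. edgeR 4.0.16 on recovered reads was an alternative, and the fit was tested on simulated data. The deviations of replicate libraries within a table correlated at 0.54 to 0.71 among microglia, LPM and SPM, 0.14 to 0.20 between BMDM and these, and -0.07 to -0.01 with TGEM. The labels do not say that replicates came from separate animals, so p-values measure the spread between these libraries.

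Named are listed genes with a common peak, the 10 peaks of highest mean percentile, the 10 genes with the most common peaks (11 with ties), the 5 called genes of largest and the 5 high genes of smallest range, and the 5 strongest peaks acetylated in 1 population. Motifs were searched in RefSeq promoter windows (GRCm38.p6), since no genome was used. Of the genes this rule names, 1 is not reported here.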

Additional observations from a re-analysis of the deposited data

How the results depend on the processing

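The number of common peaks was 13223 when only the upper 50% of each list was used, and stayed within 1.5 times of 22692 under the other alternatives. Requiring 50% of the peak to overlap gave 74.2% of members in the upper 50% of the microglia list. A start within 500 bp, within 2 kb or of 1 transcript per symbol was found for 15.3%, 24.9% and 19.0%. In the order microglia, LPM, SPM, BMDM and TGEM, H3K27ac shares were 36.7, 53.9, 60.9, 61.4 and 66.9% within 500 bp, 24.3, 37.4, 44.2, 46.6 and 50.1% with the upper 50% of the regions, 32.7, 56.2, 63.5, 60.1 and 68.9% with equal-length PU.1 lists, and 29.2, 48.7, 55.7, 52.4 and 60.5% with the members of the rule without BMDM, an alternative chosen after seeing the data. H3K4me2 shares were 65.1, 69.2, 35.1, 80.1 and 80.1% within 500 bp, 44.7, 49.9, 15.6, 59.9 and 60.4% with the upper 50%, and, leaving out SPM, 61.7, 68.3, 78.9 and 80.2% with equal-length lists and 58.4, 62.8, 72.3 and 72.9% without BMDM. H3K27ac in all 5 populations was 25.8, 15.9, 23.1 and 19.6% under these 4 settings. Recurrence in microglia NOD/ShiLtJ, microglia SPRET/EiJ, LPM NOD/ShiLtJ and LPM SPRET/EiJ was 38.2, 33.5, 63.2 and 45.8% with centres within 50 bp, 28.0, 25.6, 50.01 and 35.5% with the upper 50% of the strain list, and 42.2, 37.6, 64.4 and 50.05% without BMDM. The causes were not tested.

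Called nearest genes numbered 3431 to 4569 when 1 RNA library was left out, and 28.6 to 38.5% of all genes were then called. Without the block for the deposited table, 4385 were called (45.5%, all genes 37.4%). The genes higher in microglia near the microglia class then numbered 107 (49.3%, all genes 11.7%). That class had 48 of 94 (51.1%, all genes 12.6%) when the nearest start had to lie within 10 kb, where fewer genes were tested. Of 56 named genes that were called, 48 were called under all 16 alternatives. Of 21 that were not, 17 were called under none.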

Other observations

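The deposited PU.1 lists of cultured LPM with TGFB1 and with its vehicle hold identical entries, so the list is described as vehicle only.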
